A study of Mus musculus with 12 samples.

Results

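Very long genes, whose spans are mostly intron, are a distinct class in mammalian genomes. Many of them encode adhesion molecules, receptors and scaffolds of neurons, and several overlap common fragile sites, places where chromosomes break under replication stress. Zscan4c, which pairs a SCAN domain with zinc fingers, appears transiently in the early embryo and in a small fraction of embryonic stem (ES) cells, where its best known role is in telomere maintenance. Listed FLAG-Zscan4 regions were taken here when they lay on chromosomes 1 to 19 and their midpoint fell inside a protein-coding gene that spans 400 kb or more. The rule used gene spans and positions and no measured value. It selected 231 of the 4973 listed regions, called members here, in 154 of the 338 genes of that length (45.6%, beside 8.01% of all protein-coding genes).

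The regions come from J1 cells, a mouse ES cell line, that overexpressed FLAG-tagged Zscan4c from a CMV promoter plasmid, were selected in G418 and were picked as single clones. The number of clones behind the library is not stated in the labels. The regions were listed from 1 anti-FLAG immunoprecipitation, and an input from the same overexpressing cells is labelled beside it. The 10 other samples of the study, histone mark immunoprecipitations and inputs of wild-type and overexpressing cells, were left aside. Each group was a single library, and the region list holds no expression values, so the cell type was not checked against markers. Sequencing depth was unknown. Every interval below is a 95% interval that covers counting error only, and no difference was tested between samples.

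Most members lay far from the listed start sites, which do not cover every long gene. The 3 listed start sites closest to the midpoint of a member are shown for that reason. An internal start of Zfp981, a zinc finger gene that overlaps Zfp993, lies 0.639 kb from the midpoint of a region with a score of 56. That region is itself inside the span of Zfp981. The score is a number that the authors gave each region, on an unstated scale. An internal start of Tenm3, which encodes a teneurin adhesion protein, lies 1.53 kb from a region of score 13. An internal start of Etl4 lies 1.54 kb from a region of score 11. The 250 bases before each start, on the strand of the gene, are from RefSeq (build GRCm38.p6). Capitals would mark the heptamer TGCACAC, described as the recognition sequence of the Zscan4 zinc fingers, or its reverse complement GTGTGCA.
Zfp981, chr4:146514670-146514919, plus strand: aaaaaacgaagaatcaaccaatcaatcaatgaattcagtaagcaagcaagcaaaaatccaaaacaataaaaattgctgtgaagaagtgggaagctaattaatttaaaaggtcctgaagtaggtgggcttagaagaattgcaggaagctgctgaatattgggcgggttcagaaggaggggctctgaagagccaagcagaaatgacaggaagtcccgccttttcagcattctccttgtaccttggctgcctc
Tenm3, chr8:48674691-48674940, minus strand: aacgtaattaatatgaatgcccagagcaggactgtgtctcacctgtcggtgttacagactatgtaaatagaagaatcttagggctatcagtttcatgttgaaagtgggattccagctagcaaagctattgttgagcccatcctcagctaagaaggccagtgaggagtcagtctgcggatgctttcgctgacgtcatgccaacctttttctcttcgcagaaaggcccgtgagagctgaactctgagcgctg
Etl4, chr2:20509797-20510046, plus strand: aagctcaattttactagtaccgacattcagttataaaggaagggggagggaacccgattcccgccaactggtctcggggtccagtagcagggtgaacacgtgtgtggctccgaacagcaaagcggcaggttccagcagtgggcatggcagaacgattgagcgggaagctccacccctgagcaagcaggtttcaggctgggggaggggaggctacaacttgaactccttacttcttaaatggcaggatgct
None of these 3 sequences holds the heptamer on either strand, so no letters are in capitals. Of the 32851 windows of 300 bases in the RefSeq promoter list used here, 4.40% hold it (4.18 to 4.62%). That list covers 259 of the 338 long genes. Of the 181 windows of 114 long genes with a region 6.63% hold it (3.83 to 11.2%). Of the 214 windows of 145 long genes without a region 5.14% do (2.89 to 8.97%). The shares overlap in their intervals. A match is a description of the letters and not a binding site.

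Long genes held few FLAG-Zscan4 regions for their length. The 338 genes covered 234.2 Mb, or 9.74% of the autosomal sequence considered, and held 4.85% of the 4759 autosomal regions. This was 0.986 regions per Mb (exact Poisson interval 0.863 to 1.12). Shorter protein-coding genes held 1808 regions over 748.9 Mb, or 2.41 per Mb (2.30 to 2.53). The ratio of the rates was 0.409 (exact interval 0.355 to 0.469). Sequence in no protein-coding gene held 2720 regions, or 1.92 per Mb (1.84 to 1.99), and against it the ratio of the long genes was 0.515 (0.449 to 0.589). The long genes thus stood below both other classes, while shorter genes stood above the sequence in no protein-coding gene, at a ratio of 1.26 (1.19 to 1.34).

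From 20 kb upward, the rate was lower in each longer class of genes. Each base was assigned to the longest protein-coding gene over it. Genes of 20 to 50 kb held 2.76 regions per Mb (2.51 to 3.04) and genes of 50 to 100 kb held 2.69 (2.44 to 2.95). The rate was 2.39 (2.17 to 2.63) at 100 to 200 kb and 2.04 (1.83 to 2.27) at 200 to 400 kb. Inside the class of long genes it was lower again, from 1.35 (1.12 to 1.61) in the 193 genes of 400 to 600 kb to 0.981 (0.760 to 1.25) in the 90 genes of 600 to 1000 kb. The 55 genes of 1000 kb or more held 39 regions, or 0.533 per Mb (0.379 to 0.728). The shortest genes, under 20 kb, were outside this order at 2.01 (1.71 to 2.34).

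**Figure D1:**
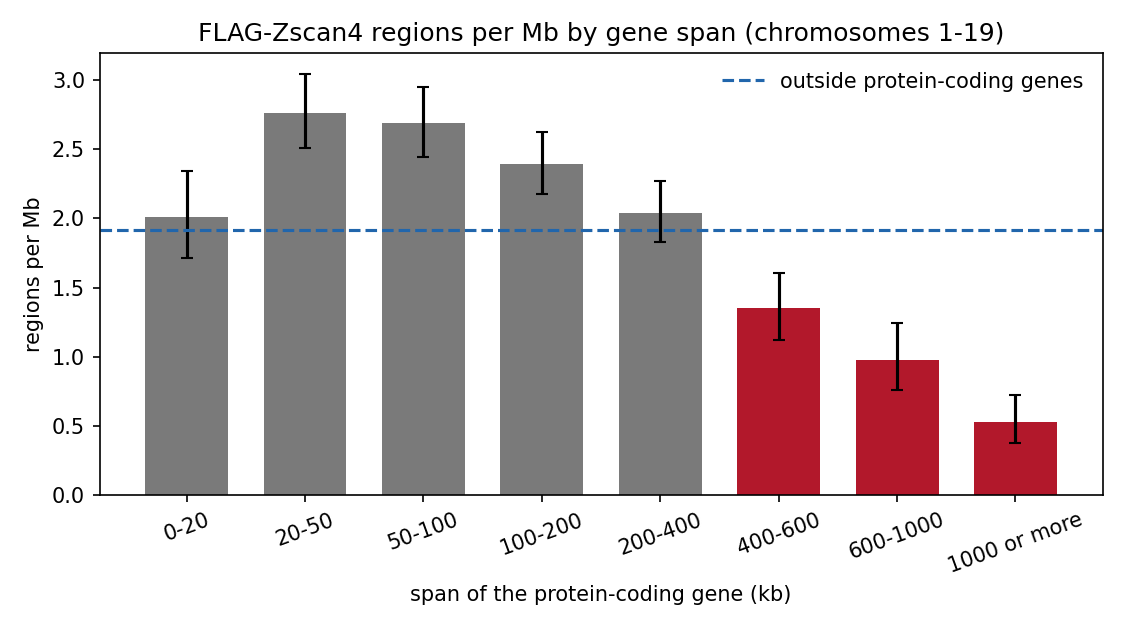
Regions per Mb (bars, with 95% exact Poisson intervals) in protein-coding genes of chromosomes 1 to 19, by gene span in kb. Genes of 400 kb or more are in red, and the dashed line is the rate outside protein-coding genes. The bars fall from 2.76 at 20 to 50 kb to 0.533 at 1000 kb or more, and all 3 red bars lie under the dashed line at 1.92.

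Long genes, which offer more sequence per gene, held at least 1 region more often than shorter genes. Of all 20560 protein-coding genes of these chromosomes, 8.01% had a region. Of the long genes 45.6% did (154 of 338, Wilson interval 40.3 to 50.9%), against 7.38% of the shorter genes, whose median span was 17.1 kb. Of the 607 genes of 200 to 400 kb 35.6% had one (31.9 to 39.5%), and of the 55 genes of 1000 kb or more 49.1% (36.4 to 61.9%). Among the 338 long genes the number of regions had a Spearman rho of 0.096 with the span, and the regions per Mb of each gene had a rho of -0.0477. Both describe genes, which are not replicates, and 184 of them have no region. With so many genes tied at no region, these rhos cannot show whether the lower pooled rate of the longer classes holds from gene to gene. At the edge of the rule, Fam189a1 (400.4 kb), Dst (400.8 kb) and Dock4 (400.9 kb), just inside, had no region. Just outside, Ano4 (396.3 kb) had 1 and Adk (396.0 kb) had none.

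The low rate of long genes was seen on each chromosome. The ratio to shorter genes of the same chromosome was below 1 on 19 of 19 autosomes, from 0.193 on chromosome 19 to 0.700 on chromosome 6, with a median of 0.367. The exact interval lay below 1 on 16 of them and included 1 on chromosomes 6, 7 and 18. Chromosome 14 had the highest rate in long genes, 1.74 per Mb (29 regions in 22 genes, 1.16 to 2.50), followed by chromosome 8 with 1.43 (0.907 to 2.15) and chromosome 1 with 1.31 (0.865 to 1.91). Chromosomes 8 and 1 were also the highest in shorter genes, at 4.59 and 3.58 per Mb. Chromosome 19 had the lowest, with 2 regions in 8 long genes, or 0.389 per Mb (0.0471 to 1.40).

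**Figure D2:**
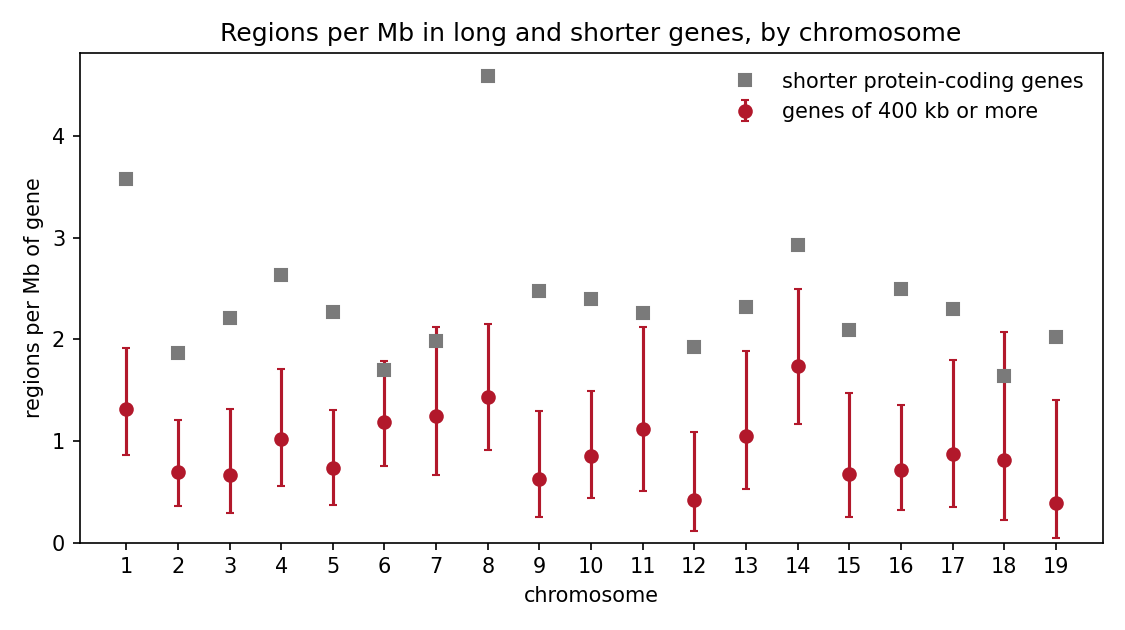
Regions per Mb of gene on each autosome, in genes of 400 kb or more (red points, with 95% exact Poisson intervals) and in shorter protein-coding genes (grey squares). The red point lies below the grey square on all 19 chromosomes, and both are high on chromosomes 1, 8 and 14.

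The neighbourhood of the long genes did not share their low rate. Within 500 kb on either side of a long gene, outside long genes, there were 617 regions over 305.0 Mb, or 2.02 per Mb (1.87 to 2.19). The ratio of the long genes to these flanks was 0.488 (0.417 to 0.568). Shorter protein-coding genes in the flanks held 2.48 per Mb (2.17 to 2.84), and those farther away held 2.40 (2.29 to 2.53).

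Both the ends and the interior of long genes held few regions. Up to 50 kb from the nearest end of a long gene the rate was 1.18 per Mb (40 regions, 0.846 to 1.61), and from 50 to 100 kb it was 1.36 (46 regions, 0.996 to 1.82). It was 1.06 (0.746 to 1.48) from 100 to 150 kb, 0.888 (0.599 to 1.27) from 150 to 200 kb and 0.80 (81 regions, 0.635 to 0.994) beyond 200 kb. In genes of 200 to 400 kb the rates at 0 to 50 and 50 to 100 kb were 2.04 (1.70 to 2.44) and 2.14 (1.79 to 2.54). At 100 to 150 kb it was 2.02 (1.59 to 2.53), and at 150 to 200 kb, with 9 regions, it was 1.00 (0.459 to 1.91). The long genes had the lower rate at all 4 distances. The intervals were apart at 0 to 50 and 100 to 150 kb, overlapped between 1.79 and 1.82 at 50 to 100 kb and overlapped widely at 150 to 200 kb. These counts enter a region once for each long gene that holds it.

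The direction of transcription was known for 259 of the 338 long genes, from a RefSeq table of promoter sequences, and these held 173 of the regions. The 5′ portion, when the span was cut in 3 equal parts, held 54 (31.2%, Wilson interval 24.8 to 38.5%), the middle 53 (30.6%) and the 3′ portion 66 (38.2%, 31.2 to 45.6%). The parts are equal in length, and their intervals overlap. Up to 50 kb from the 5′ end the rate was 1.39 per Mb (18 regions, 0.824 to 2.20), and beyond 400 kb it was 0.879 (0.682 to 1.11).

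No member outside chromosome 18 overlapped a listed promoter window. Windows were listed for 259 of the 338 long genes, so the starts of the other long genes could not be compared. The 227 members outside chromosome 18, which was not used here for promoters, were compared with windows that run from 250 bases before to 50 after a listed start site of any gene (0 of 227, Wilson upper bound 1.66%). Of the regions in shorter genes 18 of 1762 did (1.02%, 0.647 to 1.61%). No member lay within 1 kb of an end of the gene that held it, and 3 of 231 (1.30%, 0.443 to 3.75%) lay within 10 kb of one. The median distance from a member to the nearest listed start of any gene was 96.1 kb, against 21.1 kb for regions in shorter genes, a distance partly set by the span rule. It is also too long where the start of the gene itself is not listed. The region in Xkr4, for example, lay 1359 kb from the nearest listed start, though the gene spans 472.2 kb.

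Among the long genes 184 had no region, 106 had 1, 31 had 2 and 17 had 3 or more. The 48 genes with 2 or more held 127 of the 233 region and gene pairs. One region, on chromosome 18, lay in 3 overlapping predicted genes (Gm37013, Gm38666 and Gm38667), which is why there are 2 more pairs than regions.

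Zfp993, a zinc finger gene of 478.6 kb, held the most, 8 regions (chromosome 4, 146512849 to 146991471). From the low to the high coordinate their scores were 56, 37, 41, 83, 216, 102, 248 and 74. The last 5 of these regions lay between 85.3% and 96.6% of the span. Other genes overlap this span, and 1 of the 8 regions was also in Zfp981, 1 in Rex2 and 3 in pseudogenes.

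Dlgap2, a scaffold of the postsynaptic density, held 6 regions over 757.6 kb (chromosome 8, 14095776 to 14853426). Their scores in coordinate order were 144, 46, 66, 13, 29 and 35, and they were spread from 4.91% to 88.4% of the span. Fhit, a dinucleoside triphosphate hydrolase gene across a common fragile site, also held 6 over 1612 kb (chromosome 14, 9550092 to 11162061). Its scores were 60, 13, 58, 11, 272 and 38. The last 4 of them lay within 113.0 to 121.4 kb of the 5′ end of the gene, so that most regions of this gene lay in 1 short stretch.

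Trappc9, a subunit of a vesicle tethering complex, held 4 regions over 471.6 kb with scores of 1314, 18, 20 and 44. Enox1, a cell surface oxidoreductase gene of 565.5 kb, held 4 with scores of 35, 18, 28 and 120. Smyd3, a SET domain methyltransferase gene of 566.1 kb, held 4 with scores of 14, 13, 39 and 33. In Trappc9 a single region stood far above the others, while in Smyd3 the scores lay between 13 and 39, beside a list median of 33.

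**Figure D3:**
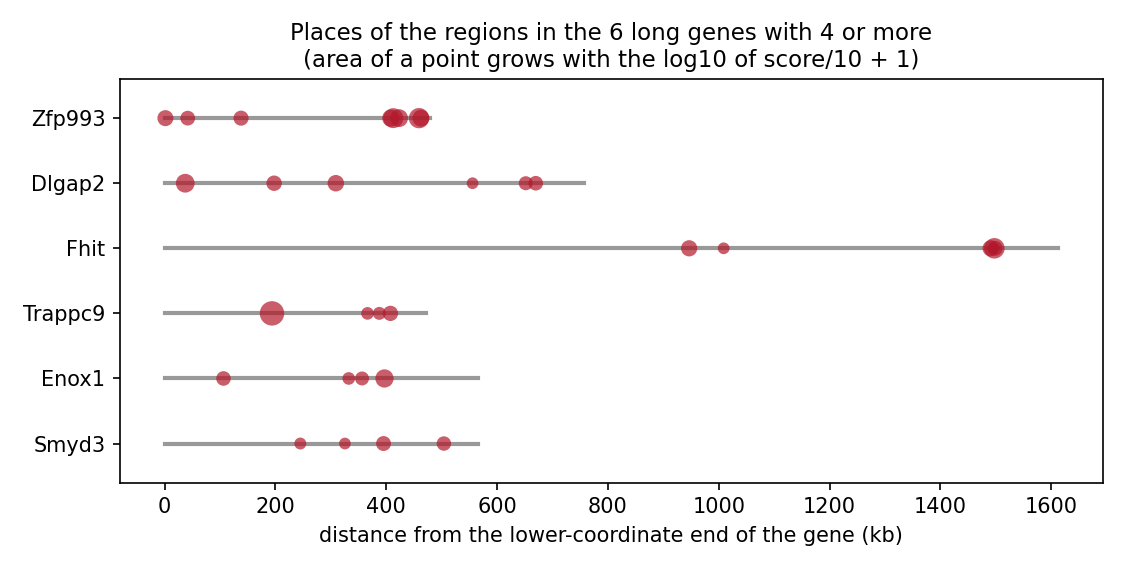
Places of the regions (red points) along the 6 long genes with 4 or more, as distance in kb from the lower-coordinate end, with gene spans as grey lines. Point area grows with the logarithm of the score. Regions of Dlgap2 and Smyd3 are spread along the gene, whereas 4 of 6 in Fhit and 5 of 8 in Zfp993 lie close together.

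A further 11 genes had 3 regions each. They were Creb5 (413.1 kb, highest score 23), Zmat4 (415.8 kb, 49), the Notch coactivator gene Maml3 (418.0 kb, 44), the Arf GTPase activator gene Agap1 (440.5 kb, 51), Rabgap1l (574.3 kb, 97) and Slit3 (587.1 kb, 27), which encodes an axon guidance ligand. The others were the junction scaffold gene Magi1 (608.5 kb, 50), the neuron navigator gene Nav2 (651.0 kb, 38), the receptor phosphatase gene Ptprg (688.6 kb, 57), Etl4 (900.3 kb, 52) and Kcnip4 (1136 kb, 120), whose product binds potassium channels. Kif26b, Fstl4 and Atp8a2 followed with 2 regions each over 403.7, 428.0 and 439.4 kb, the highest rates among the 31 genes with 2.

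The longest genes held few regions per Mb, though they had a region about as often as long genes as a whole. Of the 10 longest, 6 had a region and 4 had none, the latter being Macrod2 (1998 kb), Csmd1 (1643 kb), Nrxn3 (1612 kb) and Ctnna3 (1574 kb). Ptprd (2271 kb, score 131), Cntnap2 (2241 kb, 18), Lsamp (2197 kb, 140), Lrp1b (2058 kb, 22) and Dlg2 (1973 kb, 165) had 1 each, and the remaining one was Fhit. These 10 genes covered 19.2 Mb and held 11 regions, 5 of them outside Fhit. Other very long genes without a region were Rbfox1 (1528 kb), a splicing regulator gene, Dpp10 (1514 kb), Magi2 (1485 kb), Naaladl2 (1346 kb) and Lrrc4c (1314 kb). Of the 55 genes of 1000 kb or more, 28 had none, 20 had 1 and 7 had 2 or more. Absence from the list does not show that Zscan4 was absent from a gene.

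**Figure D4:**
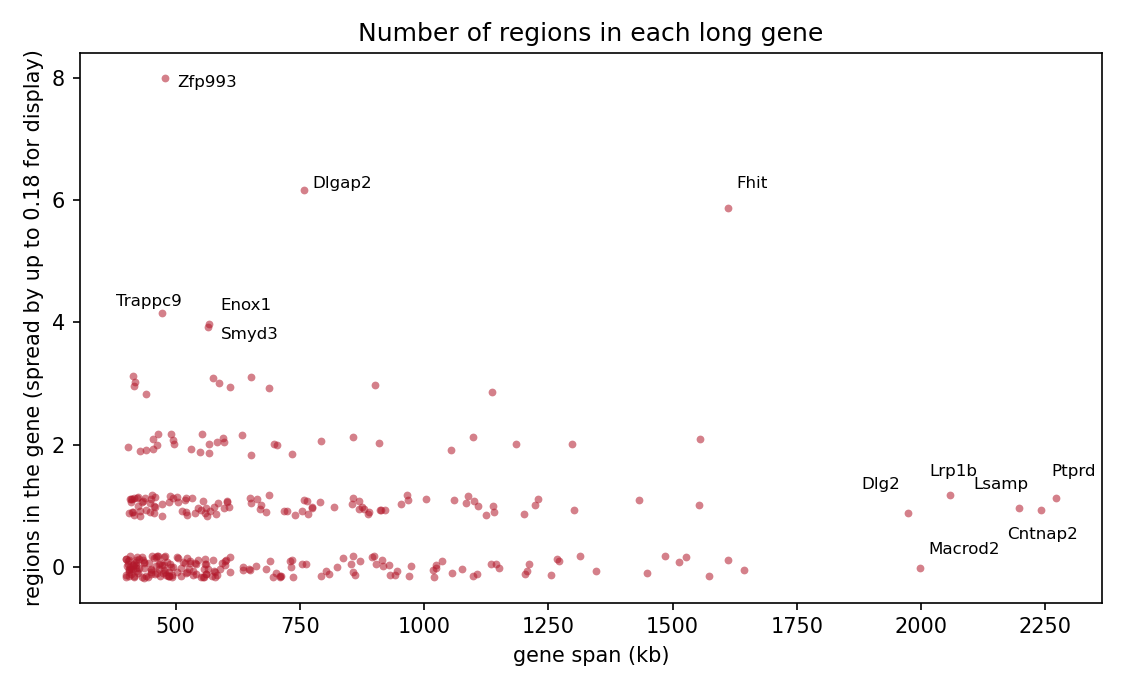
Number of regions (vertical axis, points spread slightly for display) against gene span in kb for each of the 338 long genes. Names mark the genes with 4 or more regions and the 6 longest. Zfp993 stands highest with 8, and the 6 longest genes have 0 or 1.

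High scores were more frequent among members than among regions in shorter genes. The median score of the members was 35 (interquartile range 20 to 57, full range 10 to 1314), with an exact interval of the median of 29 to 38. In shorter genes it was 31 (22 to 50), with an interval of 29 to 32. Scores of 100 or more were found for 32 members (13.9%, Wilson interval 9.99 to 18.9%), for 142 regions in shorter genes (7.85%, 6.70 to 9.19%) and for 315 in no protein-coding gene (11.6%, 10.4 to 12.8%). Members were wider than regions in shorter genes and about as wide as regions in no protein-coding gene. The median width was 311 bp, against 294 bp in shorter genes and 314 bp in no protein-coding gene. Of the members 61 (26.4%, 21.1 to 32.4%) exceeded 500 bp, against 321 regions in shorter genes (17.8%, 16.1 to 19.6%) and 676 in no protein-coding gene (24.9%, 23.3 to 26.5%).

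Long genes had the lower rate in each class of score. The ratio of long to shorter genes was 0.421 (0.317 to 0.551) for scores of 10 to 22, 0.291 (0.209 to 0.396) for 23 to 32 and 0.424 (0.321 to 0.553) for 33 to 54. It was 0.522 (0.393 to 0.683) for scores of 55 or more. For scores of 100 or more, 32 regions in long genes against 142 in shorter ones gave 0.721 (0.475 to 1.06), an interval that includes 1. Against sequence in no protein-coding gene the ratio did not follow the score. It was 0.538 (0.407 to 0.70) for scores of 10 to 22, 0.405 (0.291 to 0.550) for 23 to 32, 0.575 (0.437 to 0.745) for 33 to 54 and 0.540 (0.410 to 0.699) for 55 or more. At 100 or more it was 0.616 (0.414 to 0.888), and all of these intervals overlap. By width, the ratio of long to shorter genes was 0.351 (0.283 to 0.430) for regions of up to 300 bp and 0.608 (0.454 to 0.801) for those over 500 bp. In genes of 1000 kb or more, 26 of 39 regions had a score at or above the list's median. That share was 54.55% for all members, 47.62% in shorter genes and 50.48% in no protein-coding gene. The rate of these 26 was 0.355 per Mb (0.232 to 0.520) against 0.178 (0.0945 to 0.304) for the weaker regions, and the intervals overlap.

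**Figure D5:**
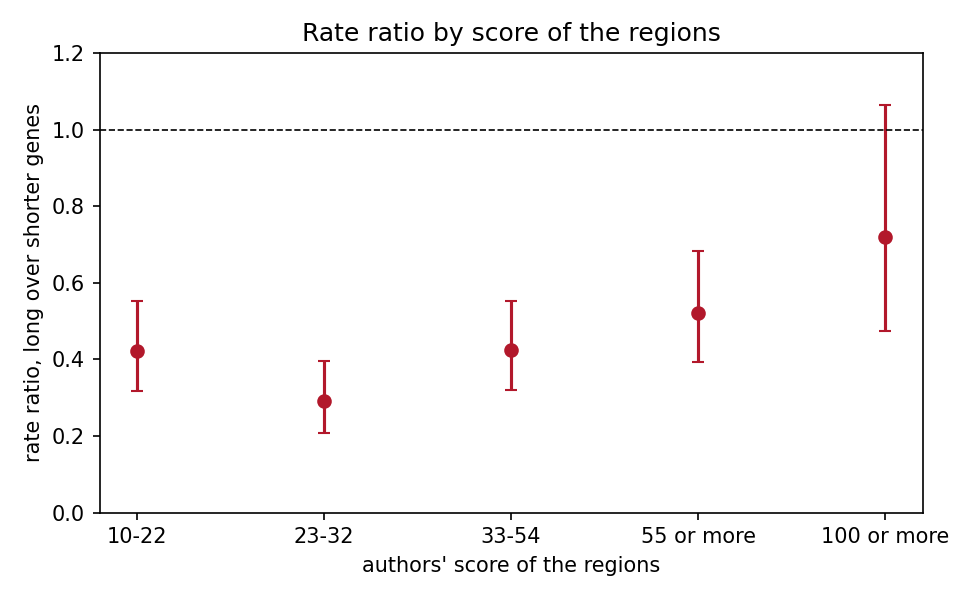
Ratio of regions per Mb in genes of 400 kb or more to that in shorter protein-coding genes (points, with 95% exact intervals) for classes of the authors' score. The class of 100 or more is part of that of 55 or more. All points lie below the dashed line at 1, from 0.291 at 23 to 32 to 0.721 at 100 or more, where the interval reaches 1.06.

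The highest score in a long gene was that of a region in Trappc9 (chromosome 15, 72783128 to 72783666, score 1314), at 193.8 kb from the nearest end of the gene. It ranked 22 in the whole list, and 1 member was among the 50 highest and 3 among the 100 highest. Members made up 231 of all 4973 listed regions, so their share at the very top was no higher than in the whole list. Next came Cntnap5b, a neurexin family adhesion gene (chromosome 1, 100180124 to 100180356, score 499), and Erc2, a protein of the presynaptic active zone (chromosome 14, 28047051 to 28047465, score 460). Both lay deep in the gene, at 310.4 and 425.0 kb from the nearest end. Fhit and Kcnab1, a potassium channel subunit gene, had 272 each. Zfp993 had 248 and 216, the RNA-binding protein gene Khdrbs2 210 and the retinoic acid receptor gene Rarb 204. Hdac9, a class IIa histone deacetylase, had 182, the glutamate receptor gene Grm5 168, Fstl4 167, Dlg2 165, the guidance receptor gene Robo2 156 and Dlgap2 144. These 15 regions lay in 14 genes, and in 6 of those genes (Cntnap5b, Kcnab1, Khdrbs2, Hdac9, Grm5 and Dlg2) it was the only region.

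The members lay far apart from each other and from other regions. The median distance to the nearest other region of the list was 237.6 kb (interquartile range 72.2 to 540.6 kb), against 93.3 kb in shorter genes. For regions in no protein-coding gene it was 110.6 kb. This distance and the share with a close neighbour both depend on the regions per Mb, so they are not a trait separate from the low rate. A neighbour within 10 kb was found for 18 of 231 members (7.79%, with an interval of 4.99 to 12.0%). The counts were 259 of 1808 (14.3%, 12.8 to 16.0%) in shorter genes and 425 of 2720 (15.6%, 14.3 to 17.0%) in no protein-coding gene. The 18 members were in 7 genes: Zfp993 and Fhit with 4 each and Agap1, Frmd4a, Syne1, Slit3 and Fgf12 with 2 each. In genes with more than 1 region, successive midpoints were a median of 108.9 kb apart (range 0.784 to 1188 kb). Most members lay in no other annotated gene (210 of 231, 90.9%), 13 were also in a long non-coding RNA gene and 5 also in a shorter protein-coding gene.

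By known function, adhesion and axon guidance genes had the lowest rate among the lists of long genes examined. Counts below are read against the 45.6% of all long genes that had a region and their 0.985 regions per Mb, and no list was tested against another. Of 53 adhesion and guidance genes 23 (43.4%) had a region, with 29 regions over 52.0 Mb or 0.557 per Mb (0.373 to 0.80). Slit3 had 3, and Robo2, the catenin gene Ctnna2, the cadherin gene Cdh13 and Tenm3 had 2 each. The share of genes with a region was thus close to that of all long genes. These genes are also long, with a median of 968.5 kb against 564.9 kb for all long genes. At 400 to 600 kb their rate was 0.614 per Mb (4 regions, 0.167 to 1.57), against 1.40 (1.16 to 1.67) in other genes. It was 0.736 (0.353 to 1.35) against 1.04 (0.795 to 1.35) at 600 to 1000 kb. At 1000 kb or more it was 0.470 (0.263 to 0.775) against 0.581 (0.372 to 0.865). The intervals overlap in each of these span classes.

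Ion channel, channel partner and receptor genes were near the whole class, with 14 of 30 (46.7%) holding a region and 0.971 regions per Mb (0.593 to 1.50). Kcnip4 led with 3, and Fgf12, Fgf14 the potassium channel partner gene Dpp6 and the calcium release channel gene Ryr2 had 2 each. Of 29 synaptic scaffold and vesicle release genes 16 (55.2%) had one, at 1.17 per Mb (0.766 to 1.72). Dlgap2, Magi1, Erc2 and the axonal ankyrin gene Ank3 led this list, and Dlgap2 held 6 of its 26 regions. At 600 to 1000 kb its 6 genes held 12 regions, 6 of them in Dlgap2, or 2.53 per Mb (1.31 to 4.42), against 0.873 (0.661 to 1.13) in other genes of that span. Of 48 genes of signalling proteins and enzymes 28 (58.3%, 44.3 to 71.2%) had one, at 1.12 per Mb (0.814 to 1.51), led by Fhit, Smyd3, Ptprg and the glypican gene Gpc6. At 1000 kb or more its 12 genes held 15 regions, 6 of them in Fhit, or 0.893 per Mb (0.50 to 1.47), against 0.425 (0.273 to 0.633) in others. Of 31 transcription and RNA-binding factor genes 14 (45.2%) had one, at 1.30 per Mb (0.851 to 1.91), led by Zfp993, Maml3, Creb5 and the nuclear receptor gene Rora. Zfp993 alone held 8 of the 26 regions of that list, and its genes of 400 to 600 kb held 2.23 per Mb (1.34 to 3.48), against 1.25 (1.02 to 1.51) in others. In the span classes not given here, the intervals of these 4 lists and of the other genes overlap.

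Common fragile site genes, many of which are also in the lists above, had a region in 16 of 27 cases (59.3%, 40.7 to 75.5%), with 23 regions over 35.1 Mb or 0.656 per Mb (0.416 to 0.984). They are the longest list, with a median of 1201 kb. Among genes of 1000 kb or more, 19 of them held 0.624 per Mb (0.370 to 0.987), against 0.473 (0.293 to 0.723) in the other 36, and Fhit held 6 of their 18 regions. The 146 long genes in none of the lists had a region in 59 cases (40.4%, 32.8 to 48.5%), at 1.07 per Mb (0.862 to 1.32).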

How the data were processed

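Regions were listed for 1 anti-FLAG immunoprecipitation. Per the submitters' processing notes, the build was mm10 and the tools included MACS2, Bowtie2, cutadapt and deepTools, without versions or thresholds. The authors deposited 1 whole-number score per region, of unstated scale. Positions are printed counted from 1. Region names are numbered 1 to 5005, of which 32 are not among the regions analysed.

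Spans (end minus start) were taken from RefSeq's gene table for GRCm38.p6, which shares the primary chromosomes of mm10. Of the protein-coding genes on chromosomes 1 to 19, 20560 were used, and 105 with a listed start under 3 Mb were left out. The first 3 Mb of these chromosomes are unsequenced, so such positions were not used. Exons and introns were not analysed here. Territory is the number of bases covered, each assigned to the longest gene over it. Counts per gene and per list use whole spans and count a region once for each gene that holds it.

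Rates have exact Poisson intervals, rate ratios exact conditional binomial intervals, shares Wilson intervals and medians binomial order-statistic intervals, all at 95%, computed with Python 3.11.15, numpy 2.4.6 and scipy 1.17.1. They treat regions as independent and cover counting error only. With 1 library, no test between samples exists. The code was checked on data made with known rate ratios.

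Genes were named by rule: the 20 long genes with most regions, the genes of the 15 highest scores, the 10 longest, the 10 longest without a region, up to 4 per list (with ties), and 3 on each side of 400 kb. Some genes that the rule names are not reported here. Other genes are named where a small count needed it or a promoter was shown, and were chosen after their values were seen. The members and lists were chosen with earlier results of these data known. After the values of the lists had been seen, 8 genes judged to be in a list of the wrong function were taken out, and the lists of channels and of enzymes were renamed. Before that, 15 of 31 channel and receptor genes had a region (0.999 regions per Mb), 29 of 51 signalling and enzyme genes (1.07) and 15 of 34 transcription and RNA-binding genes (1.23).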

Additional observations from a re-analysis of the deposited data

How the results depend on the processing

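The rate ratio of long to shorter genes was below 1 in all 11 alternatives computed for it, from 0.326 to 0.721, and its interval lay below 1 in 10, the exception being the ratio of 0.721 for scores of 100 or more. It moved outside its own interval for scores of 55 or more (0.522) and with spans of 300 kb (0.472) or 600 kb (0.326) or more. It was 0.417 without chromosomes 1 and 8, 0.418 without 1 Mb windows of 10 or more regions, 0.408 with regions within 1 kb merged, 0.443 against genes of 100 to 400 kb, and 0.378 without Zfp993, Dlgap2 and Fhit. That last setting and the class of 100 or more were chosen after seeing the data.

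The other settings that moved a value counted fewer regions, other genes or other windows, and no further cause was tested. For scores of 33 or more and of 55 or more, the rate was 0.538 and 0.269 per Mb, the share of long genes with a region 29.9% and 16.0%, the median score 54.5 and 102, and the median width 414.5 and 579 bp. The rate was 0.137 per Mb for scores of 100 or more, 1.17 for spans of 300 kb or more and 0.749 for 600 kb or more. At 600 kb or more, 51.7% of the genes had a region, 0% of the regions lay within 10 kb of a gene end and 3.77% had a neighbour within 10 kb. Merging within 1 kb left 4.42% with such a neighbour, and 32.5% had one within 100 kb. The share was 0% within 1 kb of a gene end and 17.3% within 50 kb. The other 42 of 64 values stayed within the interval of the main value. Depth was unknown, so no limit of detection was computed. No paired analysis was possible because each group had 1 sample.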
